A study of Mus musculus with 9 samples.

Results

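The transcripts of the mouse mitochondrial genome make up 37 of the 54532 gene identifiers in the count table, taken as every gene whose symbol starts with mt-. They comprise 13 mRNAs, 2 rRNAs and 22 tRNAs. The libraries came from submandibular salivary glands of wild-type (WT) mice that had received 10 Gy of radiation, with 3 samples each taken 30, 60 and 90 days later. The labels' protocols state that total RNA from tissue sections was treated with DNase I and made into libraries with the SMARTER mRNA-seq kit. All 9 samples were irradiated, and the non-irradiated glands that the protocols mention were not analysed here. The labels give no strain, age or sex, so time since irradiation and age cannot be told apart. They do not say whether the 3 samples of a group came from separate mice, so the p-values below measure the spread between these samples, which may be technical.

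Mitochondria keep a small circular genome whose strands are both transcribed into long precursors. The heavy-strand precursor carries both rRNAs, most tRNAs and every mRNA except mt-Nd6, whereas the light-strand precursor carries mt-Nd6 and the remaining tRNAs. Cutting out the tRNAs releases the mRNAs and rRNAs, most mature mRNAs receive short poly(A) tails, and the RNAs are then kept or degraded gene by gene. The mRNAs encode core subunits of respiratory complexes I, III and IV and of ATP synthase, which are assembled with many nuclear-encoded subunits. The rRNAs and tRNAs serve the ribosome inside the organelle. In the salivary gland, acinar cells use ATP for secretion of fluid and protein, and the cells of the striated ducts are rich in mitochondria.

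Total counts per library ran from 16541396 to 26065856, and Mucl2, a secreted acinar product, took between 31.4% and 42.8% of them. The library of the first 30-day sample had the highest share of Mucl2 and, with a factor of 0.824, the lowest TMM (trimmed mean of M-values) scaling factor, against a highest factor of 1.19. Expression is given below as CPM, counts per 1000000 counts of the TMM-scaled library total. The 6 acinar markers summed to between 381000 and 522000 CPM at 30 days, between 299000 and 446000 CPM at 60 days and between 267000 and 397000 CPM at 90 days. Among them edgeR called Aqp5 lower at 90 than at 30 days and Bhlha15 lower at 90 than at 60 days. Of all genes tested, 1.77% and 0.164% were called lower in these comparisons. The 7 markers of granular ducts, which produce growth factors and kallikreins in this gland, summed to between 5650 and 10800 CPM at 30 days, between 27900 and 35800 CPM at 60 days and between 23700 and 40500 CPM at 90 days. All 7 passed the test as higher at 60 and at 90 days than at 30 days, beside 1.14% and 1.81% of all genes. The 8 markers of striated and excretory ducts summed to between 17200 and 21200 CPM at 30 days, between 21500 and 23900 CPM at 60 days and between 18400 and 21100 CPM at 90 days. Of these 8, edgeR called Scnn1b higher at 60 than at 30 days, and Scnn1b and Scnn1g higher at 90 than at 30 days. The shares of all genes called higher there were again 1.14% and 1.81%. The 6 markers of myoepithelial and basal cells summed to 304 to 423, 450 to 480 and 419 to 592 CPM at the 3 times. At 90 against 30 days edgeR called Trp63 higher, beside 1.81% of all genes, and limma-voom called none. In edgeR all 6 had an unadjusted p under 0.05 there, beside 16.8% of all genes. The 6 immune markers, 5 of them tested, summed to 47.6 to 90.5, 56.3 to 65.0 and 72.6 to 157.0 CPM. The 5 red blood cell markers summed to 43.9 to 84.5, 43.2 to 72.6 and 74.5 to 229.0 CPM. Of these immune and red blood cell markers edgeR called none, and DESeq2 called Jchain at 90 against 60 and at 90 against 30 days. The 5 skeletal muscle markers summed to between 1.61 and 3.08 CPM with Myh4 at 0 counts, and among the 5 adipocyte markers Ucp1 was at 0 counts. The part of cell composition in the values below was not tested, and in bulk tissue fewer cells of a type and less RNA per cell cannot be told apart.

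Mitochondrial transcripts took 2.21% ± 0.186 (SD, n = 3) of all counts at 30 days, 1.90% ± 0.320 at 60 days and 2.11% ± 0.159 at 90 days. The 30-day libraries held 2.26%, 2.37% and 2.01%, the 60-day libraries 1.54%, 2.01% and 2.15%, and the 90-day libraries 2.27%, 2.12% and 1.95%. These ranges overlapped between all time points. With Mucl2 left out of the total, the shares were 3.68% ± 0.332, 2.98% ± 0.489 and 3.23% ± 0.170.

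Nearly all of these counts were mRNA. Of the mitochondrial counts, mRNAs made up 98.96% ± 0.118 at 30 days, 98.66% ± 0.289 at 60 days and 98.46% ± 0.0936 at 90 days. The rRNAs made up 0.826% ± 0.0957, 1.13% ± 0.276 and 1.30% ± 0.0996, and the tRNAs 0.210% ± 0.0224, 0.206% ± 0.0249 and 0.246% ± 0.0108. In the organelle the rRNAs are usually abundant, so these shares describe the libraries made with this kit, and whether the preparation captured the classes alike was not tested. The rRNA share was between 0.747% and 0.932% in the 30-day libraries and between 1.20% and 1.40% in the 90-day libraries, which do not overlap, while the 60-day libraries spanned 0.845% to 1.39%. The tRNA share did not overlap between 30 and 90 days either, but only just, with a highest 30-day value of 0.2357% and a lowest 90-day value of 0.2358%. Shares within the mitochondrial total sum to 100%, so one member's higher share lowers the others.

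Several of the mRNAs share most of their sequence with nuclear transcripts. Mitochondrial sequence has been copied into nuclear chromosomes during evolution, and the mouse holds such a copy on chromosome 1 that spans from mt-Co1 to mt-Nd4. In GENCODE M21 (GRCm38, the mm10 build that the submitters' processing notes name) it is annotated as 7 pseudogene models at chr1:24611535-24616197, minus strand. The transcripts of mt-Co2, mt-Atp6, mt-Co3, mt-Nd4l and mt-Nd4 matched their models without a mismatch over 681, 678, 783, 294 and 876 aligned bases. The transcript of mt-Nd3 (chrM:9459-9806) differed from its model Gm28438 (chr1:24612775-24613119) by 1 substitution, T3C, in 345 aligned bases, an identity of 99.71%. The last 492 bases of mt-Co1 differed from Gm29216 by 6 substitutions, an identity of 98.78%. The first 61 bases of mt-Nd3 and of its model are shown because they hold the only difference between them, with the differing base in capitals and positions counted from 1 at the 5′ end of the transcript; below them stand the first 61 bases of mt-Co2 (chrM:7013-7696) and of its model Gm28661 (chr1:24614885-24615565), which are identical.
mt-Nd3: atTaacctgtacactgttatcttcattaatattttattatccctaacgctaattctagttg
Gm28438: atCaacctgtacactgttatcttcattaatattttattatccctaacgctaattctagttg
mt-Co2: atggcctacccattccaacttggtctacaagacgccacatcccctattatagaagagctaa
Gm28661: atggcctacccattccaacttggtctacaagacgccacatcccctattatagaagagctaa

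To measure the overlap, each mitochondrial transcript was read in windows of 50 bases at every position, and a window was counted as shared where the same bases stood on either strand of a transcript annotated on another chromosome. Shared windows made up 98.0% to 100% of mt-Co2, mt-Atp6, mt-Co3, mt-Nd4l and mt-Nd3, and 51.1% of mt-Co1 and 62.2% of mt-Nd4. They made up 8.2% of mt-Nd2 and 7.6% of mt-Nd5, 1.04% of mt-Rnr2, and 0% of mt-Nd1, mt-Nd6, mt-Cytb, mt-Rnr1, mt-Atp8 and the tRNAs. Only annotated transcripts were compared, so nuclear sequence outside gene models was not searched.

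Among the mRNAs, most of the genes with low levels per kilobase of transcript were the shared ones. The 5 mRNAs shared over nearly their whole length averaged between 7.10 and 115.6 CPM per kb over the 9 libraries. The 5 mRNAs with under 10% of windows shared, mt-Atp8 left out, averaged between 1086 and 3550 CPM per kb. Both mRNAs shared over about the middle range, mt-Co1 and mt-Nd4, averaged 4871 and 1539 CPM per kb, so a shared stretch with unshared sequence beside it went with a high level. Low levels also occurred with little sharing found: the rRNAs mt-Rnr1 and mt-Rnr2, with 0% and 1.04% of windows shared, averaged 98.4 and 81.2 CPM per kb. mt-Atp8 averaged 1.08 CPM per kb with no window shared with an annotated transcript. It lies between mt-Co2 and mt-Atp6, within the span of the chromosome 1 copy but mostly between its annotated models. Its sharing with that part of the copy was not measured. Most tRNAs, also with no window shared with an annotated transcript, had few counts. Among them mt-Ts1, mt-Td, mt-Tk, mt-Tg and mt-Tr lie within the span of that copy too, between its annotated models. How reads that match several places were counted is not given in the sources used here, and its part in these levels was not tested.

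**Figure D1:**
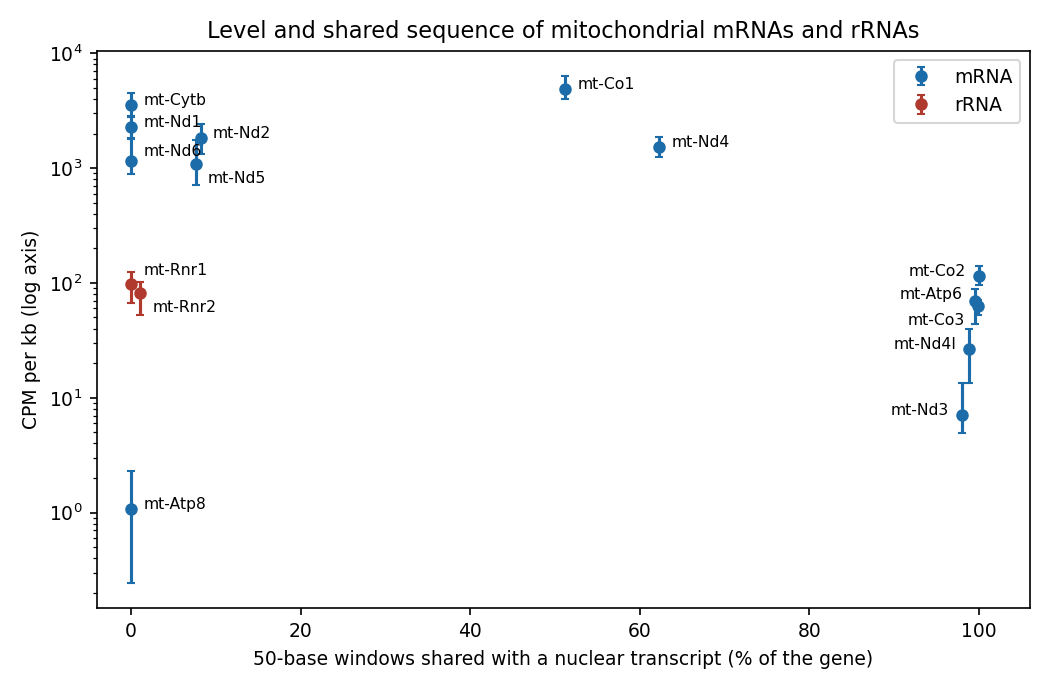
Mean CPM per kb (log axis) of the 13 mitochondrial mRNAs and 2 rRNAs against the percentage of their 50-base windows found in a nuclear transcript; bars run from the lowest to the highest of 9 libraries. The 5 mRNAs at 98.0% to 100% lie between 7.10 and 115.6 CPM per kb, but the rRNAs at 98.4 and 81.2 CPM per kb are low with no more than 1.04% shared. mt-Atp8, at 1.08 CPM per kb, lies mostly between the annotated models of the chromosome 1 copy, where sharing was not measured.

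The nuclear models themselves received counts of the same order as their mitochondrial partners where the whole transcript is shared. Over the 9 libraries, mt-Co2 had 15499 counts and Gm28661 had 10863, a ratio of 0.701. The ratio of nuclear to mitochondrial counts was 0.894 for mt-Atp6 and Gm10925, 0.888 for mt-Nd4l and Gm10222, and 0.586 for mt-Co3 and Gm28437. For mt-Nd3 the nuclear model held the larger part, with 2272 counts for Gm28438 against 470 for mt-Nd3, and a ratio between 3.73 and 6.82 in every library. The shared stretches of the high-level mRNAs gave low ratios, 0.00794 for mt-Nd4 and Gm28439 and 0.00175 for mt-Co1 and Gm29216. The counts of mt-Co2, mt-Atp6, mt-Co3, mt-Nd3 and mt-Nd4l are therefore uncertain as measures of the mitochondrial RNA.

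The mRNAs and rRNAs formed a stable order of levels per kb. From the top, mt-Co1 averaged 4871 CPM per kb (range 4027 to 6329), mt-Cytb 3550, mt-Nd1 2296, mt-Nd2 1839, mt-Nd4 1539, mt-Nd6 1161 and mt-Nd5 1086 CPM per kb. Each of these stood above the next in 9 of 9 libraries, except that mt-Nd6 stood above mt-Nd5 in 7. In these counts the light-strand mRNA ranked with the heavy-strand mRNAs and was not set apart by its level. The use of strand in the counting is not given, so the counts of mt-Nd6 may hold antisense reads. Far below came mt-Co2 at 115.6, mt-Rnr1 at 98.4, mt-Rnr2 at 81.2, mt-Atp6 at 69.6 and mt-Co3 at 62.8 CPM per kb. Among these neighbours mt-Co2 stood above mt-Rnr1 in 7 libraries, mt-Rnr2 above mt-Atp6 in 6 and mt-Atp6 above mt-Co3 in 7, while mt-Rnr1 stood above mt-Rnr2 in 9. The lowest mRNAs were mt-Nd4l at 26.7, mt-Nd3 at 7.10 and mt-Atp8 at 1.08 CPM per kb.

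**Figure D2:**
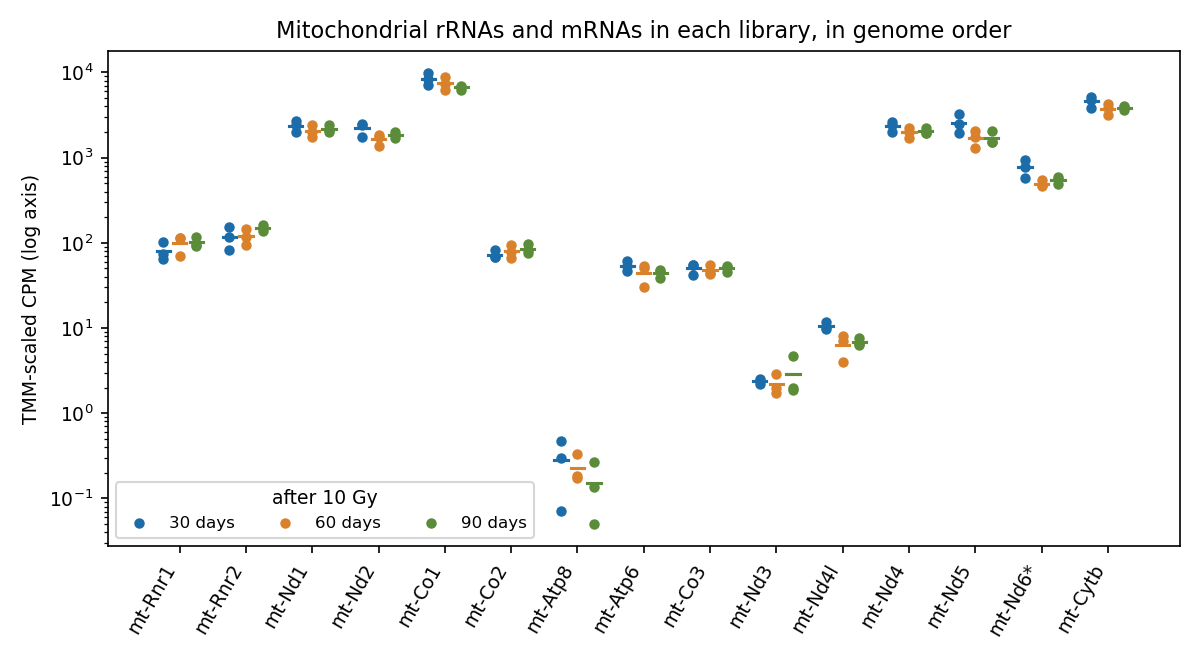
TMM-scaled CPM (log axis) of the 2 rRNAs and 13 mRNAs in genome order, 1 point per library and a line at the mean of each time point; an asterisk marks the light-strand gene mt-Nd6. mt-Co1 is at 6222 to 9778 CPM and mt-Atp8 at 0.0502 to 0.474 CPM, and within a gene the time points differ far less than the genes do.

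Of the 37 members, 23 passed the filter on low counts and were tested: 12 mRNAs, both rRNAs and 9 tRNAs. The tests were edgeR's quasi-likelihood tests across 15224 genes with Benjamini-Hochberg adjustment over all of them and a threshold of 0.05. The first comparison asks what differed between 60 and 30 days. In it, 1 of 23 members was called, mt-Nd6, beside 1.56% of all genes tested (1.14% higher and 0.427% lower), and 7 of 23 had an unadjusted p under 0.05, beside 12.4% of all genes. The fold changes of 11 of 12 mRNAs were negative with a median log2 fold change of -0.26, against a median of -0.00246 over all genes. Those of both rRNAs were positive, and those of 6 of 9 tRNAs negative.

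Between 90 and 60 days edgeR called 0 of 23 members, beside 0.256% of all genes tested (0.092% higher and 0.164% lower). DESeq2 and limma-voom called 0 as well, and 0 members had an unadjusted p under 0.05 in edgeR, beside 10.8% of all genes. The fold changes of 11 of 12 mRNAs were positive, with a median of 0.08 on the log2 scale. That sign rests on single libraries, since the median was -0.0374 without the first 60-day sample and -0.00483 without the third 90-day sample. Between 90 and 30 days edgeR called 0 of 23 members, beside 3.57% of all genes tested (1.81% higher and 1.77% lower). DESeq2 called 2, mt-Nd5 and mt-Nd6, limma-voom called 0, and 4 of 23 had an unadjusted p under 0.05 in edgeR, beside 16.8% of all genes. The fold changes of 10 of 12 mRNAs were negative with a median of -0.26, against 0.0135 over all genes. The 60 against 30 day and 90 against 30 day comparisons share their 30-day libraries. In the test of any difference among time points, 1 of 23 members was called, mt-Nd6, beside 3.29% of all genes, and 4 had an unadjusted p under 0.05, beside 16.7%.

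**Figure D3:**
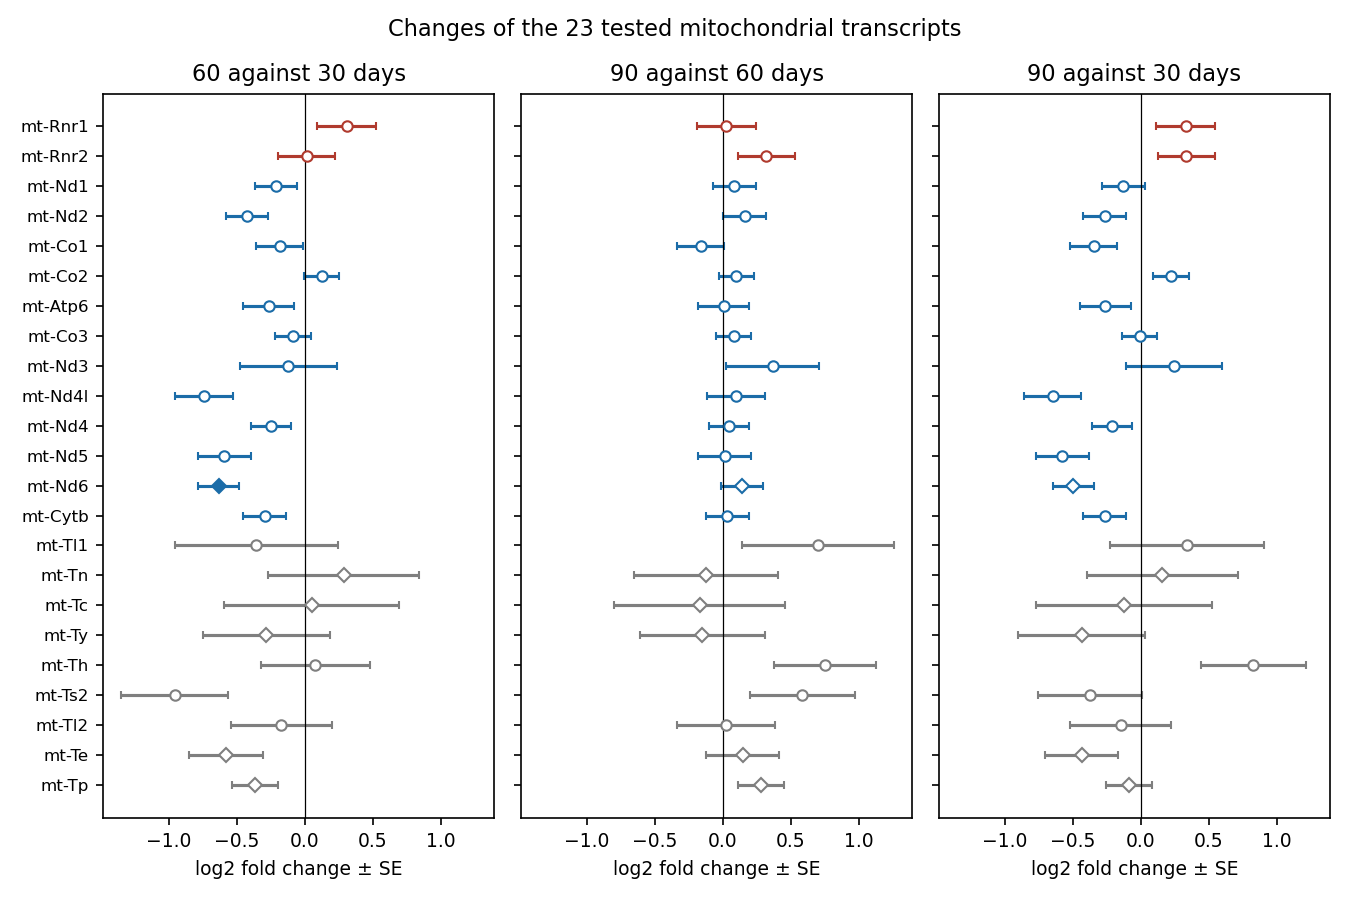
Log2 fold changes with standard errors of the 23 tested members in genome order within each class, for the 3 pairs of time points; circles are heavy-strand and diamonds light-strand genes, blue mRNAs, red rRNAs and grey tRNAs, and a filled symbol marks an adjusted p under 0.05. The only filled symbol is mt-Nd6 at 60 against 30 days.

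mt-Nd6 encodes a membrane subunit of complex I and is the only mRNA of the light strand (chrM:13552-14070, minus strand). It stood at 950, 784 and 570 CPM in the 30-day libraries, at 464, 542 and 478 CPM in the 60-day libraries and at 586, 492 and 557 CPM in the 90-day libraries. All 3 values at 60 days lay below all 3 at 30 days, and those at 90 days overlapped both other groups. It fell by 0.64 ± 0.153 (SE) on the log2 scale from 30 to 60 days (edgeR adjusted p = 0.0422). At 90 against 30 days its log2 fold change was -0.50 ± 0.153 (edgeR adjusted p = 0.0827), and at 90 against 60 days it was 0.14 ± 0.152 (edgeR adjusted p = 0.806). The 60-day call did not hold without any of 7 single libraries. edgeR's adjusted p was 0.23, with a log2 fold change of -0.452, without the first 30-day sample, and 0.162 without the second. Without the first, the second and the third 60-day sample it was 0.133, 0.124 and 0.0904, and without the first and the third 90-day sample it was 0.0532 and 0.0738. The call was kept without the third 30-day sample (edgeR adjusted p = 0.0057) and without the second 90-day sample (edgeR adjusted p = 0.0474). Over 19 alternatives in all, the log2 fold change ran from -0.809 to -0.452, was negative in 19, and was called in 9.

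mt-Nd6 meets its heavy-strand neighbour mt-Nd5 (chrM:11742-13565) end to end, with 14 bases that belong to both genes on opposite strands. The last 45 bases of each transcript are shown with those overlapping bases in capitals, since reads across them cannot be given to either gene without strand.
mt-Nd5: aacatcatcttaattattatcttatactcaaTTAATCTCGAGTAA
mt-Nd6: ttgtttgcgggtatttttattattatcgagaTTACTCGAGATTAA

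mt-Nd5 encodes a large proton-pumping subunit of complex I. It stood at 3214, 2503 and 1924 CPM at 30 days, then 1310, 2029 and 1726 CPM at 60 days and 2044, 1527 and 1546 CPM at 90 days. The highest 60-day and 90-day values lay above the lowest 30-day value. Its log2 fold change at 60 against 30 days was -0.59 ± 0.195 (edgeR adjusted p = 0.187), close in size to that of mt-Nd6. The ratio of mt-Nd6 to mt-Nd5 compares neighbouring genes of opposite strands within a library, so that library scaling cancels. On the log2 scale of counts it was -1.73 ± 0.0466 (SD, n = 3) at 30 days, -1.75 ± 0.221 at 60 days and -1.64 ± 0.164 at 90 days. An exact permutation test of any difference among the time points, over the 280 ways to part the samples, gave p = 0.671 (adjusted over 3 ratios, 0.671). The smallest p this design allows is 0.00357. A difference in this ratio was therefore not detectable over the spread of the samples. How the counting used strand is not given, so the counts of each gene may hold reads from its antisense strand. Whether the ratio follows the balance between the strands was not tested.

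mt-Nd1, mt-Nd2 and mt-Nd4 of complex I also averaged highest at 30 days, and none of them passed the test. mt-Nd1, a core membrane subunit, stood at 2722, 2386 and 2014 CPM at 30 days, then 1728, 2401 and 2012 CPM at 60 days and 2083, 2001 and 2430 CPM at 90 days. mt-Nd2 stood at 2505, 2395 and 1768 CPM, then 1369, 1842 and 1753 CPM, then 1858, 1710 and 1979 CPM. Its groups overlapped at 1 library only between 30 and 60 days, where its log2 fold change was -0.43 ± 0.157 (edgeR adjusted p = 0.244). mt-Nd4 stood at 2596, 2442 and 2022 CPM, then 1721, 2222 and 1983 CPM, then 1923, 1931 and 2252 CPM, with overlap between all groups. For each of these 3 genes the first 30-day sample, whose scaling factor was the lowest, gave the highest CPM of the 9 libraries.

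mt-Nd4l and mt-Nd3 are small complex I subunits whose transcripts are shared almost whole with chromosome 1. mt-Nd4l stood at 11.8, 10.3 and 9.83 CPM at 30 days, then 3.97, 8.05 and 7.05 CPM at 60 days and 7.59, 6.26 and 6.48 CPM at 90 days, so that the 30-day values lay above all others. Its log2 fold change was -0.74 ± 0.214 at 60 against 30 days (edgeR adjusted p = 0.106) and -0.65 ± 0.212 at 90 against 30 days (edgeR adjusted p = 0.103). With the counts of each mitochondrial gene and its chromosome 1 model added together, a step chosen after seeing the data, mt-Nd4l was called at 90 against 30 days (log2 fold change -0.69 ± 0.170, edgeR adjusted p = 0.0281). The model Gm10222 alone had a log2 fold change of -0.74 ± 0.198 in that comparison (edgeR adjusted p = 0.0437). mt-Nd3 stood at 2.55, 2.20 and 2.37 CPM at 30 days, then 1.99, 2.85 and 1.71 CPM at 60 days and 1.85, 1.99 and 4.72 CPM at 90 days. The third 90-day sample stood apart from the other 8 libraries for mt-Nd3, and the groups overlapped.

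Complex III has a single mitochondrial subunit, cytochrome b, from mt-Cytb. It stood at 5164, 4786 and 3861 CPM at 30 days, then 3198, 4220 and 3826 CPM at 60 days and 3896, 3607 and 3995 CPM at 90 days. Its log2 fold change at 60 against 30 days was -0.30 ± 0.157 (edgeR adjusted p = 0.467), and its groups overlapped. As a share of the mitochondrial counts it was the steadiest of the large members, between 18.71% and 20.12% in the 9 libraries.

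Complex IV, the cytochrome c oxidase, takes its core from mt-Co1, mt-Co2 and mt-Co3. mt-Co1, which holds the site of oxygen reduction, was the most abundant member and stood at 9778, 8481 and 7146 CPM at 30 days, then 6288, 8771 and 7296 CPM at 60 days and 7019, 6222 and 6734 CPM at 90 days. All 90-day values lay below all 30-day values, with a log2 fold change of -0.35 ± 0.172 (edgeR adjusted p = 0.319). mt-Co2 stood at 81.7, 67.9 and 68.9 CPM, then 78.2, 93.5 and 66.3 CPM, then 82.6, 75.3 and 97.0 CPM. It was one of the mRNAs without a negative fold change at 90 against 30 days, at 0.22 ± 0.129 on the log2 scale (edgeR adjusted p = 0.417). mt-Co3 stood at 55.1, 54.4 and 41.4 CPM, then 43.9, 55.6 and 42.6 CPM, then 52.3, 44.9 and 52.8 CPM, with overlap between all groups.

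ATP synthase takes mt-Atp6, a subunit of the proton channel, and mt-Atp8, a small membrane subunit. mt-Atp6 stood at 60.6, 52.8 and 46.7 CPM at 30 days, then 30.0, 50.2 and 52.8 CPM at 60 days and 47.9, 38.5 and 47.2 CPM at 90 days. The first 60-day sample was the lowest of the 9 libraries for mt-Atp6, as it was for mt-Cytb and every complex I mRNA except mt-Nd3. mt-Atp8 had 1, 5 and 8 counts at 30 days, 4, 4 and 8 counts at 60 days and 8, 4 and 1 counts at 90 days, and it was not tested. Its last 43 bases are also the first bases of mt-Atp6 on the same strand, and they are shown in capitals at the end of its transcript because no read within them can be assigned to 1 gene.
mt-Atp8: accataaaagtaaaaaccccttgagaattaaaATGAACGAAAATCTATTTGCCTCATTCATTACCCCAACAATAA

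Counted by complex, complex I mRNAs held 43.15% ± 0.769 of the mitochondrial counts at 30 days, 40.35% ± 0.519 at 60 days and 43.11% ± 0.677 at 90 days. The 60-day libraries, from 39.99% to 40.94%, lay below all libraries of both other groups. Complex IV mRNAs held 36.18% ± 0.687, 38.83% ± 0.736 and 35.23% ± 0.742, and here the 60-day libraries, from 38.08% to 39.55%, lay above all others. Complex III held 19.41% ± 0.524, 19.26% ± 0.493 and 19.88% ± 0.297, and ATP synthase 0.227% ± 0.0115, 0.227% ± 0.0455 and 0.231% ± 0.0139, with overlap between the time points. These shares were not tested, and they sum with the rRNAs and tRNAs to 100%.

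Gene by gene, mt-Co1 held 35.60%, 35.04% and 36.35% of the mitochondrial counts at 30 days, 38.11%, 38.89% and 37.52% at 60 days and 35.22%, 34.70% and 33.68% at 90 days. Its share was thus highest at 60 days in every library, although its CPM was not. mt-Nd5 held 11.70%, 10.34% and 9.79% at 30 days, 7.94%, 8.998% and 8.88% at 60 days and 10.26%, 8.52% and 7.73% at 90 days. The share of mt-Nd6 was 3.46%, 3.24% and 2.90%, then 2.81%, 2.40% and 2.46%, then 2.94%, 2.75% and 2.78%. For both genes the 60-day shares lay below all 30-day shares. The remaining large members over the 9 libraries were mt-Cytb with 18.71% to 20.12% and mt-Nd1 with 9.86% to 12.16%. With them stood mt-Nd4 with 9.45% to 11.26% and mt-Nd2 with 8.17% to 9.90%. Each of the other mRNAs held under 1%.

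In counts relative to the mitochondrial total, 7 of 23 members did not overlap between 60 and 30 days, with mt-Nd1, mt-Co1 and mt-Th higher and mt-Nd5, mt-Nd6, mt-Nd4l and mt-Ts2 lower. Scaled in the same way, 17.6% of all genes tested did not overlap. Between 90 and 60 days it was 5 of 23, with mt-Rnr2, mt-Nd2, mt-Ts2 and mt-Tp higher and mt-Co1 lower, beside 10.0% of all genes. Between 90 and 30 days it was 8 of 23, with both rRNAs, mt-Nd1, mt-Co2, mt-Co3, mt-Th and mt-Tp higher and mt-Nd4l lower, beside 27.2% of all genes. The members are parts of the total that scaled them and nuclear genes are not, so these shares of all genes are not a like-for-like background. In TMM-scaled CPM the counts were 3 of 23 lower and 0 higher between 60 and 30 days, 0 of 23 between 90 and 60 days, and 1 higher and 3 lower between 90 and 30 days. The shares of all genes without overlap in CPM were 16.9% (8.65% higher and 8.22% lower), 15.9% (8.3% and 7.64%) and 23.2% (11.4% and 11.8%). With both directions together the members' shares, 3, 0 and 4 of 23, were below the background, while the 3 lower members between 60 and 30 days and the 3 between 90 and 30 days were above the share of genes that were lower.

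**Figure D4:**
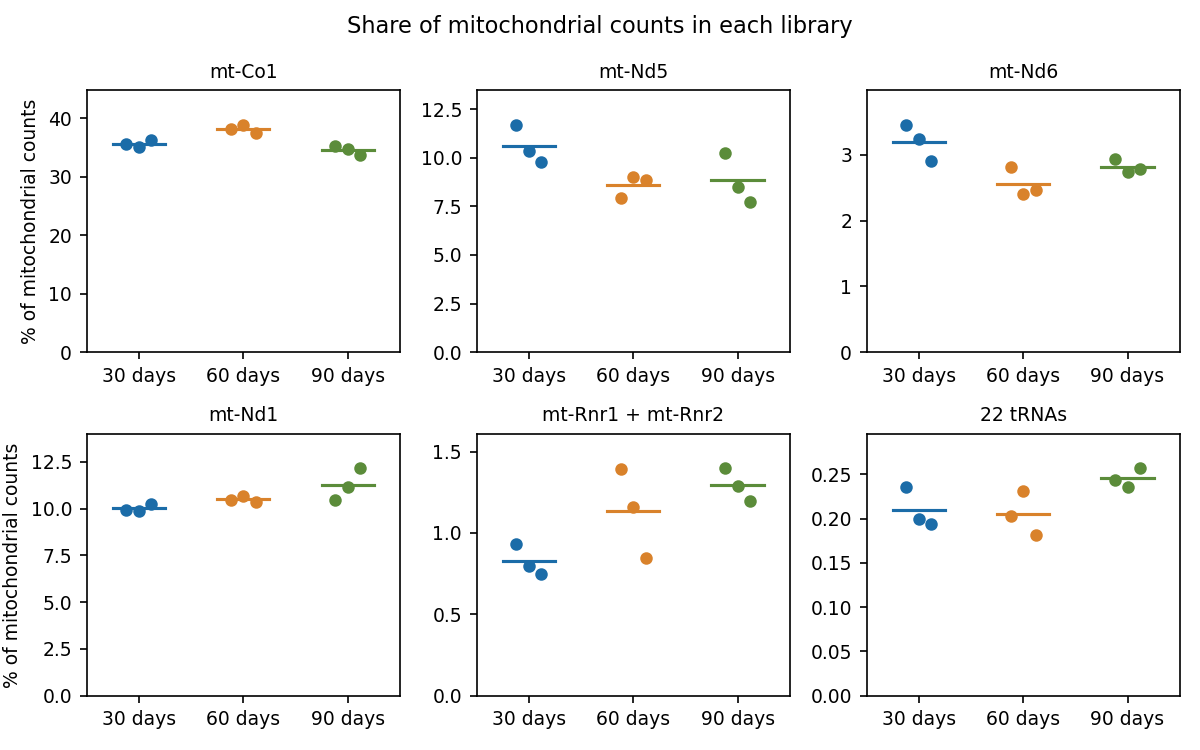
Percentage of the mitochondrial counts of each library held by mt-Co1, mt-Nd5, mt-Nd6, mt-Nd1, both rRNAs together and the 22 tRNAs together, at 30, 60 and 90 days, with a line at each mean. mt-Co1 is highest in the 60-day libraries (37.52% to 38.89%), and the rRNAs are at 1.20% to 1.40% in the 90-day libraries against 0.747% to 0.932% in the 30-day libraries.

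The rRNAs are the first long genes of the heavy-strand precursor. mt-Rnr1, the 12S rRNA of the small ribosomal subunit (chrM:70-1024), stood at 103.3, 74.9 and 64.0 CPM at 30 days, then 113.7, 114.6 and 70.8 CPM at 60 days and 118.4, 93.8 and 92.1 CPM at 90 days. mt-Rnr2, the 16S rRNA of the large subunit (chrM:1094-2675), stood at 152.7, 118.5 and 82.8 CPM, then 116.4, 146.9 and 93.5 CPM, then 160.3, 137.3 and 147.7 CPM. The groups overlapped for both genes, and the spread was widest at 30 days for mt-Rnr2. At 90 against 30 days the log2 fold changes were 0.33 ± 0.217 for mt-Rnr1 (edgeR adjusted p = 0.503) and 0.33 ± 0.210 for mt-Rnr2 (edgeR adjusted p = 0.48). With the library total alone in place of TMM, both were called, at 0.585 ± 0.164 for mt-Rnr1 (edgeR adjusted p = 0.0413) and 0.584 ± 0.159 for mt-Rnr2 (edgeR adjusted p = 0.0346). That scaling also moved the median of all genes to 0.237, so that relative to it the fold changes are nearly those under TMM.

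Neighbouring genes of the precursor give ratios free of library scaling. The log2 ratio of mt-Nd1 to mt-Rnr2, an mRNA and an rRNA side by side, was 4.36 ± 0.226 (SD, n = 3) at 30 days, 4.12 ± 0.278 at 60 days and 3.87 ± 0.170 at 90 days. The 90-day libraries, at 3.70, 3.87 and 4.04, lay below all 30-day libraries, at 4.16, 4.33 and 4.61, and the 60-day libraries overlapped both. An exact permutation test of any difference among the time points, over 280 partitions, gave p = 0.0893, and 0.177 after adjustment over the 3 ratios. The log2 ratio of mt-Rnr2 to mt-Rnr1 was 0.53 ± 0.148, 0.27 ± 0.201 and 0.56 ± 0.123 (exact permutation p = 0.118, adjusted 0.177). Neither ratio passed the test after adjustment.

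The tRNAs were barely sampled. Over the 9 libraries the 22 genes received 8844 counts of 3984686 for the whole mitochondrial genome. For 4 of them, mt-Tf, mt-Td, mt-Tk and mt-Tt, no count was recorded in any library, and a further 6 had fewer than 10 counts in all. A count of 0 allows up to 3 counts in a library, between 0.115 and 0.181 CPM, and this floor covers counting error only. Light-strand tRNAs, 8 of the 22, took 7804 counts or 88.2%, against 1040 for the 14 heavy-strand tRNAs. The light-strand mt-Ts1 and the heavy-strand mt-Td, mt-Tk, mt-Tg and mt-Tr lie within the span of the chromosome 1 copy. The part of that copy in their low counts was not tested. A single gene, mt-Tp (tRNA for proline, chrM:15356-15422, minus strand), took 6044 counts, or 68.3% of the tRNA total. As the first gene read from the light strand after the control region, it is printed whole beside mt-Tf (tRNA for phenylalanine, chrM:1-68, plus strand), which lies on the other side of the control region and had no count.
mt-Tp: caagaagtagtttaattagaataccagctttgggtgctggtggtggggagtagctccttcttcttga
mt-Tf: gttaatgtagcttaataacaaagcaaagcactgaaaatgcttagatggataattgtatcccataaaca

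mt-Tp stood at 44.4, 33.6 and 26.05 CPM at 30 days, then 23.5, 32.7 and 24.4 CPM at 60 days and 34.0, 30.5 and 33.3 CPM at 90 days, with overlap between all groups. Its share of the mitochondrial counts, 0.1667% to 0.1707% at 90 days, lay above all other libraries. The other light-strand tRNAs with at least 10 counts in every library were mt-Tc (cysteine) with 731 counts, mt-Te (glutamate) with 637 and mt-Ty (tyrosine) with 149. The heavy-strand ones were mt-Tl2 (a leucine tRNA) with 380, mt-Th (histidine) with 268 and mt-Ts2 (a serine tRNA) with 228, which lie next to each other between mt-Nd4 and mt-Nd5. Over the 9 libraries mt-Tc ranged from 1.84 to 7.78 CPM, mt-Te from 2.12 to 5.29 CPM, mt-Ty from 0.475 to 1.09 CPM and mt-Tl2 from 1.04 to 2.62 CPM. None of the 9 tested tRNAs was called by edgeR in any comparison. Among them, 3 had an unadjusted p under 0.05 at 60 against 30 days, mt-Ts2, mt-Te and mt-Tp, and 1 at 90 against 30 days, mt-Th. mt-Th stood at 1.06, 1.19 and 0.888 CPM at 30 days and at 1.25, 1.96 and 2.41 CPM at 90 days, a log2 fold change of 0.83 ± 0.387 (edgeR adjusted p = 0.287). mt-Ts2 stood at 1.84, 1.72 and 1.24 CPM at 30 days and at 0.777, 0.724 and 0.960 CPM at 60 days, a log2 fold change of -0.96 ± 0.394 (edgeR adjusted p = 0.31). Both pairs of groups did not overlap, at counts of 15 to 57 per library for mt-Th and 16 to 29 for mt-Ts2.

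Set apart by strand, the 9 light-strand genes held 3.39% ± 0.302 of the mitochondrial counts at 30 days, 2.74% ± 0.219 at 60 days and 3.04% ± 0.103 at 90 days. The 30-day libraries, at 3.67%, 3.42% and 3.07%, lay above the 60-day libraries, at 2.99%, 2.61% and 2.61%, and the 90-day libraries overlapped both. Most of this was mt-Nd6, since the 8 light-strand tRNAs together held 0.155% to 0.222%. The 28 heavy-strand genes held the remainder, 96.33% to 97.39%. How the counting used strand is not given in the sources used here, so reads from a gene and from its antisense strand cannot be told apart.

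The nuclear genome supplies the partner subunits of the same complexes. Of 72 such genes for complexes I, III, IV and ATP synthase, edgeR called 0 in each of the 3 comparisons. Over all genes tested it called 1.56% at 60 against 30 days, 0.256% at 90 against 60 days and 3.57% at 90 against 30 days. With unadjusted p under 0.05 there were 1, 2 and 1 of 72, beside 12.4%, 10.8% and 16.8% of all genes. DESeq2 and limma-voom also called 0 of the 72 genes in each. Their median log2 fold change was 0.0846 at 60 against 30 days, with 59 of 72 positive, where the mitochondrial mRNAs had a median of -0.259 with 11 of 12 negative. At 90 against 60 days the nuclear median was -0.125 with 65 of 72 negative, and at 90 against 30 days it was -0.0261 with 45 negative. Signs of these medians depend on scaling: with the library total alone they were 0.122, 0.0577 and 0.188, and with the 10 most abundant genes left out of the total 0.00179, -0.0894 and -0.0772. The mitochondrial median at 60 against 30 days was lower than the nuclear one under each of these scalings, at -0.191 and -0.336. The difference between the sets was not tested. Among them, Atp5b, the catalytic subunit of ATP synthase, stood at 766.7 ± 17.2 CPM at 30 days, then 766.9 ± 36.7 CPM at 60 days and 655.1 ± 16.4 CPM at 90 days (edgeR adjusted p = 0.311 at 90 against 30 days). Cyc1, the cytochrome c1 of complex III, stood at 112.0 ± 6.79, 113.5 ± 15.2 and 96.2 ± 4.12 CPM, and Cox5a of complex IV at 45.8 ± 1.59, 51.1 ± 5.0 and 45.1 ± 5.32 CPM. In complex I, Ndufs4 stood at 24.6 ± 0.455, 30.1 ± 2.87 and 27.5 ± 4.58 CPM, and Ndufa9 at 46.9 ± 3.68, 44.1 ± 5.16 and 39.6 ± 1.08 CPM.

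**Figure D5:**
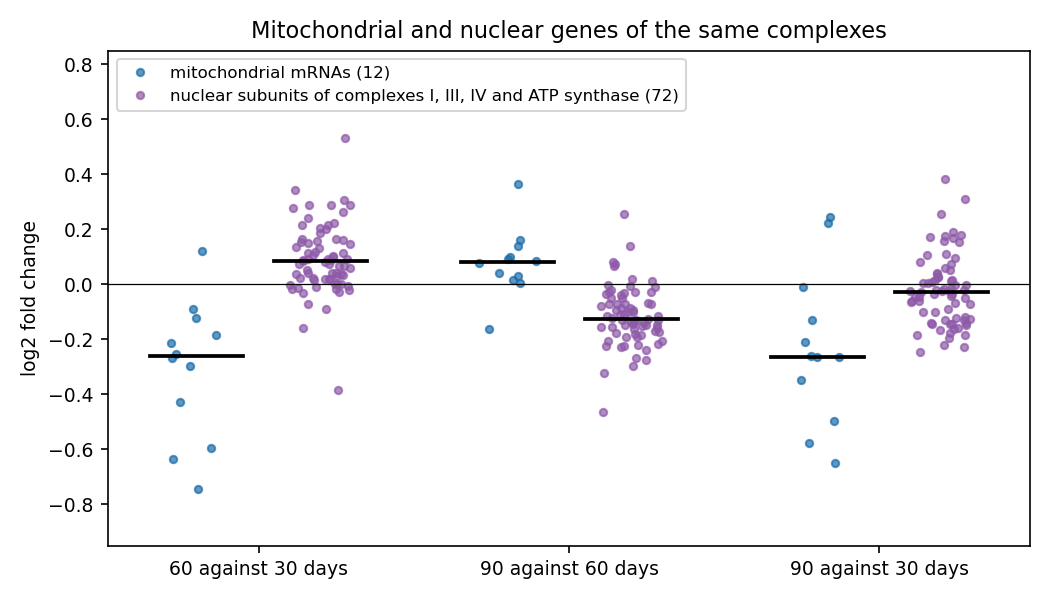
Log2 fold changes of the 12 tested mitochondrial mRNAs and of the 72 nuclear genes for subunits of complexes I, III, IV and ATP synthase in the 3 comparisons, 1 point per gene with a line at each median. At 60 against 30 days the medians are -0.259 and 0.0846, and at 90 against 60 days 0.0819 and -0.125.

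The machinery that transcribes and processes these RNAs is nuclear-encoded as well. Of 16 genes for transcription and replication of the mitochondrial genome, edgeR, DESeq2 and limma-voom called 0 in each comparison. Over all genes edgeR called 1.56% at 60 against 30 days, 0.256% at 90 against 60 days and 3.57% at 90 against 30 days. At an unadjusted p under 0.05 edgeR gave 2, 0 and 0 of the 16, beside 12.4%, 10.8% and 16.8% of all genes. Polrmt, the mitochondrial RNA polymerase, stood at 17.03 ± 1.74, 15.6 ± 0.894 and 16.2 ± 0.358 CPM at 30, 60 and 90 days. Tfam, which packages the genome and activates its promoters, stood at 14.8 ± 1.20, 14.0 ± 2.10 and 14.7 ± 0.657 CPM. Tefm, the elongation factor, stood at 3.10 ± 0.0813, 3.34 ± 0.765 and 3.65 ± 0.850 CPM. Polg, the replicative polymerase, stood at 26.4 ± 4.13, 21.3 ± 1.1 and 23.8 ± 2.11 CPM, and Mterf3, a repressor of mitochondrial transcription, at 11.9 ± 0.632, 9.60 ± 0.711 and 10.7 ± 0.974 CPM. Twnk, the helicase of the replication fork, stood at 10.3 ± 1.68, 12.6 ± 1.21 and 10.3 ± 0.212 CPM.

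Of 22 genes for RNA processing and stability, the same tools called 0 in each comparison. Over all genes edgeR called 1.56% at 60 against 30 days, 0.256% at 90 against 60 days and 3.57% at 90 against 30 days. With an unadjusted p under 0.05 in edgeR there were 2, 1 and 2 of the 22, beside 12.4%, 10.8% and 16.8% of all genes. Lrpprc, which with Slirp keeps mitochondrial mRNAs from decay, stood at 33.0 ± 4.66, 31.0 ± 4.34 and 26.9 ± 2.95 CPM. Slirp stood at 0.556 ± 0.213, 0.799 ± 0.209 and 1.01 ± 0.404 CPM. Fastk, a founding member of a family of mitochondrial RNA-binding proteins, had the smallest adjusted p of this list, with 66.4 ± 2.90, 53.2 ± 2.59 and 55.1 ± 3.74 CPM (edgeR adjusted p = 0.131 at 60 against 30 days). Trmt10c, part of the complex that cuts the 5′ ends of mitochondrial tRNAs, stood at 10.8 ± 0.73, 11.8 ± 0.97 and 9.42 ± 1.13 CPM.

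Of 19 genes for ligases that charge mitochondrial tRNAs, edgeR called 0 at 90 against 60 days, beside 0.256% of all genes. It also called 0 at 90 against 30 days, beside 3.57%. At an unadjusted p under 0.05 there were 2 and 1 in these comparisons, beside 10.8% and 16.8% of all genes. At 60 against 30 days edgeR called 1 of the 19, beside 1.56% of all genes. This was Lars2, which charges the leucine tRNAs, at 68.4 ± 6.39 CPM at 30 days, then 105.2 ± 5.48 CPM at 60 days and 75.8 ± 6.92 CPM at 90 days. It rose by 0.62 ± 0.106 on the log2 scale (edgeR adjusted p = 0.00392), and the call was kept without each of the 9 samples in turn. At 90 against 60 days its log2 fold change was -0.47 ± 0.105 (edgeR adjusted p = 0.064). In that comparison Lars2 was called by DESeq2 (adjusted p = 0.00407), by edgeR without a filter on low counts (adjusted p = 0.00392), with the sample number as a replicate block (adjusted p = 0.0347) and without the first 30-day sample (adjusted p = 0.0439), but not by limma-voom (adjusted p = 0.0566). The tRNAs that it charges, mt-Tl1 and mt-Tl2, had log2 fold changes of -0.36 ± 0.598 and -0.17 ± 0.370 at 60 against 30 days. Aars2, the alanine ligase, stood at 7.82 ± 2.28, 5.94 ± 1.06 and 8.52 ± 0.949 CPM, and Kars, which charges lysine tRNAs in the cytosol and in mitochondria, at 62.5 ± 3.18, 57.1 ± 4.57 and 53.3 ± 3.0 CPM.

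Among 77 tested genes for mitochondrial ribosomal proteins, Mrps16, a protein of the small subunit, fell by 0.58 ± 0.137 on the log2 scale from 30 to 90 days (19.0 ± 1.23 to 12.7 ± 0.439 CPM, edgeR adjusted p = 0.0212) and was the only one called, beside 3.57% of all genes. That call was lost without the first or second 30-day sample or the second or the third 90-day sample, with an adjusted p of up to 0.0978. Of 9 regulators of mitochondrial biogenesis, Esrrg, an orphan nuclear receptor, rose by 0.56 ± 0.117 from 30 to 60 days (edgeR adjusted p = 0.0192) and was also called at 90 against 30 days, at 0.44 ± 0.117 (edgeR adjusted p = 0.041). Ppargc1a, the coactivator PGC-1 alpha, fell by 0.66 ± 0.164 from 30 to 90 days (40.9 ± 7.75 to 25.8 ± 4.4 CPM, edgeR adjusted p = 0.0373). At 60 against 30 days the call of Esrrg was lost without the first or second 30-day sample or without the second or the third 60-day sample, with an adjusted p of up to 0.101. At 90 against 30 days it was lost without any 30-day sample, the second 60-day sample or the second or the third 90-day sample, with an adjusted p of up to 0.182. The call of Ppargc1a was lost without the first or second 30-day sample, the second 60-day sample or the second or the third 90-day sample, with an adjusted p of up to 0.174. With the library total alone in place of TMM, the adjusted p was 0.306 for Mrps16 and 0.227 for Ppargc1a at 90 against 30 days, and 0.0965 for Esrrg at 60 against 30 days. With the 10 most abundant genes out of the total, it was 0.0514 and 0.0718 for Esrrg at 60 and at 90 against 30 days, and the calls of Mrps16 and Ppargc1a at 90 against 30 days were kept (adjusted p = 0.0127 and 0.0295). Of 11 translation factors and 12 markers of mitochondrial mass, edgeR, DESeq2 and limma-voom called 0 in each comparison. Over all genes edgeR called 1.56% at 60 against 30 days, 0.256% at 90 against 60 days and 3.57% at 90 against 30 days. At most 1 and 2 had an unadjusted p under 0.05 in edgeR, both at 90 against 30 days, beside 16.8% of all genes. Cs, citrate synthase of the matrix, stood at 125.7 ± 6.0, 111.4 ± 5.51 and 107.5 ± 4.07 CPM (edgeR adjusted p = 0.238 at 90 against 30 days). Hspa9, the matrix chaperone, stood at 164.2 ± 10.1, 174.0 ± 7.49 and 143.1 ± 4.86 CPM, and Mrrf, the ribosome recycling factor, at 5.62 ± 1.37, 6.46 ± 0.109 and 7.58 ± 0.415 CPM.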

How the data were processed

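The authors deposited raw read counts per gene for the libraries made from total RNA with the mRNA-seq kit, with whole numbers for 54532 Ensembl identifiers. The submitters' processing notes name fastp, STAR, featureCounts and the mm10 build; the annotation, strand setting and treatment of reads with several matches are not given in the sources used here. Each of 9 columns names a day and sample number of the labels; another 3 columns fit none of the samples and were left unused. Positions and transcript sequences came from GENCODE M21. Of 27001 genes with a count, filterByExpr (minimum count 10) in edgeR 4.0.16 (R 4.3.3) kept 15224. The quasi-likelihood test with robust dispersion, TMM scaling and a term for time point was fitted to all 9 libraries (common biological coefficient of variation 0.15), with Benjamini-Hochberg adjustment over all genes, after being tested on simulated data. Every mRNA and rRNA, tRNAs with at least 10 counts in every library, and up to 3 genes of each list by smallest adjusted p formed the named genes; some of the list genes, none of them called, are not printed. Alternatives were other scalings, DESeq2 1.42.0, limma-voom (limma 3.58.1), other filters, the 6 libraries of a contrast, leaving out each sample, and the sample number as a block. Members and lists were chosen with earlier results of these data known.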

Additional observations from a re-analysis of the deposited data

How the results depend on the processing

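The number of members called at 60 against 30 days was 1 in the main analysis, 0 with the library total alone, limma-voom or only the 6 libraries of the contrast, 3 with DESeq2 (mt-Nd4l, mt-Nd5 and mt-Nd6), 4 without a filter on low counts (those and mt-Nd2), and 0 to 1 with each sample left out. At 90 against 30 days it was 0 in the main analysis, 2 with the library total alone (both rRNAs) and 2 with DESeq2, 3 without a filter, 1 with the 10 most abundant genes out of the total, with 6 libraries or with the chromosome 1 copies added, and 0 to 2 with each sample left out. For any difference it was 1 in the main analysis, 0 with the library total alone or limma-voom, 3 with DESeq2, 4 without a filter, 2 with the copies added, and 0 to 2 with each sample left out. At 90 against 60 days it was 0 under all 19 alternatives. The cause of these differences was not tested.

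As a percentage of all counts, the mRNAs changed by -0.0727 on the log2 scale from 30 to 90 days, and by -0.191 without Mucl2 and -0.346 without the 10 most abundant genes in the total. Without those 10 genes, the rRNAs changed by 0.315 in place of 0.588, and the tRNAs by -0.108 in place of 0.164. The median of the mRNAs at 90 against 60 days was 0.0819, and 0.256 with the library total alone, which moved the median of all genes to 0.174.

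Samples with the same number did not deviate together (correlations -0.06 to 0.191), so the labels' numbers were not taken as pairs. With the sample number as a replicate block, edgeR called 1, 0, 0 and 1 members at 60 against 30 days, 90 against 60 days, 90 against 30 days and for any difference, as in the main analysis. Permuting time points within each number as a replicate block gave p = 0.0278 for mt-Nd1 to mt-Rnr2 in an exact test over 36 orderings, the smallest p it allows, 0.278 for mt-Rnr2 to mt-Rnr1 and 0.778 for mt-Nd6 to mt-Nd5. With 3 libraries a group and few counts, only large differences in tRNAs could be detected at this depth, and mt-Atp8 was too low to test.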
